A study of Mus musculus with 6 samples.

Results

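The regions described here are stretches of open chromatin whose presence followed the same split of 6 ATAC-seq libraries into 3 and 3, with libraries of both genotypes on each side. ATAC-seq marks open chromatin by the places where a transposase can insert adapters. In each library the deposited peak intervals were ranked by their fold over the local background, the 50000 highest were kept, and the kept intervals of the 6 libraries were merged into 70499 regions. A first set of 1632 regions (2.31% of all regions) held a kept interval in WT replicates 1 and 3 and KO replicate 3 and in no other library. A second set of 1204 regions (1.71%) held one in WT replicate 2 and KO replicates 1 and 2 and in no other library. Together they made 2836 regions. The choice rests on the ranks of all 6 libraries, so ranks and presence are given as a description without a test.

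The study compared sorted urothelial cells of Stag2-WT and Stag2-KO mice, with 3 libraries per genotype, all from batch 1 and from 50000 viable cells per condition. Every mouse, WT included, had been fed TMX in the diet, and cells were taken 1 week after induction. The cells came from peeled urothelium and were sorted as GFP+, DAPI-. The strain, the age and sex of the mice, the driver of the recombination and the number of mice behind a library were not given in the labels, so the spread between libraries may include a technical part.

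STAG2 is a subunit of cohesin, the ring-shaped complex that entraps DNA, pairs sister chromatids and forms chromatin loops. Urothelium is the layered epithelium that lines the bladder. Its superficial cells make uroplakins and its basal cells make basal keratins and hemidesmosome proteins. Open regions at gene starts are mostly promoters, many of them rich in CG dinucleotides and shared by most cell types, whereas open regions away from genes include enhancers, which differ more between cell types.

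Promoters that overlapped members of good rank were printed to show the sequence difference between the sets that is measured further on. They are from RefSeq on GRCm38.p6, whose coordinates are those of mm10, and run from 250 bases before to 50 bases after the annotated start, 5′ to 3′ on the strand of the gene. Capitals mark CG dinucleotides. For the first set these are Klhl1 (chr14:96518985-96519284, minus strand), Klra2 (chr6:131247313-131247612, minus strand) and Cul3 (chr1:80340641-80340940, minus strand).
Klhl1: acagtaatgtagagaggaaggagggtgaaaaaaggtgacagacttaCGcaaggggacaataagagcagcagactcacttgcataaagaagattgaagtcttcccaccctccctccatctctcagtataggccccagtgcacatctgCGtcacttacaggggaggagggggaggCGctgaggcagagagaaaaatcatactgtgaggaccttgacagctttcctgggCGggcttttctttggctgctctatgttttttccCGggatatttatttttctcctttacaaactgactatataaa
Klra2: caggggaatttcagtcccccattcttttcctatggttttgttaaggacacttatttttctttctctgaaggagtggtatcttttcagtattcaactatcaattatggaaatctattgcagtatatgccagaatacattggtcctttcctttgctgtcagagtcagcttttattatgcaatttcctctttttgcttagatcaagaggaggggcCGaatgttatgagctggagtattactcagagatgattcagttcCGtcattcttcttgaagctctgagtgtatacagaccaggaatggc
Cul3: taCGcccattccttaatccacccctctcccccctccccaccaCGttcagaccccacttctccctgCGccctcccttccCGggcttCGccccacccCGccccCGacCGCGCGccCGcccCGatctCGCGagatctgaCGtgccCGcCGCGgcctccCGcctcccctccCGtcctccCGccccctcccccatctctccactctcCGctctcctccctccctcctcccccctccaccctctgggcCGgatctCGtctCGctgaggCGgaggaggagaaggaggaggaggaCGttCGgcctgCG
Klhl1, which encodes an actin-binding kelch-like protein, had 5 CG dinucleotides in its 300 bases, and Klra2, a receptor gene of natural killer cells, had 2. Cul3, the scaffold of a ubiquitin ligase, had 29, so the set was not uniform. For the second set these are Hfm1 (chr5:106925841-106926140, minus strand), Elovl2 (chr13:41220113-41220412, minus strand), Ryr2 (chr13:12106896-12107195, minus strand) and Cped1 (chr6:21985660-21985959, plus strand).
Hfm1: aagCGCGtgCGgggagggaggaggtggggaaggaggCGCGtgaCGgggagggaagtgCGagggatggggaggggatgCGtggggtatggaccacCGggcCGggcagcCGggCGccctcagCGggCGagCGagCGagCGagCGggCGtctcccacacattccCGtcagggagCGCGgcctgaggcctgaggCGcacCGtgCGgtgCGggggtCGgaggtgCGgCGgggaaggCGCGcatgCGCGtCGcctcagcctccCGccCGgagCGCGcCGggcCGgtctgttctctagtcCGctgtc
Elovl2: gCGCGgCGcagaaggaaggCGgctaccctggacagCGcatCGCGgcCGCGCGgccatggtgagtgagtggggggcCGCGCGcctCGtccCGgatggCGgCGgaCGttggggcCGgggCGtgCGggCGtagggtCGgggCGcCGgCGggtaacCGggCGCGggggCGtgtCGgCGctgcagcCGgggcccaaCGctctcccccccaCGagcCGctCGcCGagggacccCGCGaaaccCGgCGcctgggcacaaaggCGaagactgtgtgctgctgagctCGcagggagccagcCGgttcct
Ryr2: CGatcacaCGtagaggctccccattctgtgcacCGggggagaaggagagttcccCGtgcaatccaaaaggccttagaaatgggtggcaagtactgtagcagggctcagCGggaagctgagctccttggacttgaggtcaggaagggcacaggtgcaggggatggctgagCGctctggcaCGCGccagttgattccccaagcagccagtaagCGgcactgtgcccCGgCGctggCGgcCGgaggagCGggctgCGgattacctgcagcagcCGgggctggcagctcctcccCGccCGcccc
Cped1: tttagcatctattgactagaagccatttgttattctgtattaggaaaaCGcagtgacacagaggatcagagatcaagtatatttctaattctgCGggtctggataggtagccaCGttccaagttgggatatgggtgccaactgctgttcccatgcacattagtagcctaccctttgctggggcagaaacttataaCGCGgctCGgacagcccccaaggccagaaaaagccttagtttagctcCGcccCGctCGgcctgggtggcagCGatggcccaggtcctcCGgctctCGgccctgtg
Elovl2, a fatty acid elongase, had 45 CG dinucleotides and Hfm1, a helicase of meiotic recombination, had 41. Ryr2, the calcium release channel of heart muscle, had 18, and Cped1 had 12. The counts cover all 300 bases, of which 170, 236 and 104 lay in the member region at Klhl1, Klra2 and Cul3. At Hfm1 295 lay in it, and at Elovl2, Ryr2 and Cped1 all 300.

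The split crossed the genotypes and only in part followed the replicate numbers of the labels. Both libraries numbered 3 held the first set, both numbered 2 held the second set, and WT replicate 1 and KO replicate 1 fell on opposite sides. For comparison, 649 regions (0.921%) were kept in the 3 WT libraries alone and 738 (1.05%) in the 3 KO libraries alone, fewer than in either crossing set. The crossing split was chosen from these same lists, and the sizes of other splits into 3 and 3 are not given here. Nothing is therefore read from this order of sizes. Whole lists held between 149153 and 260462 intervals, that of KO replicate 1 being the longest. An interval at an end of Stag2 was kept in all 6 libraries, which does not test the knockout. The fold of the last kept interval ranged from 7.33 to 12.1, and the background coverage read from the lists from 5.89 to 7.98. For neither value did the 3 libraries holding the first set lie apart from the 3 holding the second, and the part of depth in the split was not tested.

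Members were regions of middling rank that differed in degree between libraries. In the first set the median rank was 34849 in WT replicate 1, 37557.5 in WT replicate 3 and 41008 in KO replicate 3. In the other libraries it was 60092.5 in WT replicate 2, 72987 in KO replicate 1 and 75283.5 in KO replicate 2. The libraries that lacked the first set were therefore not alike, since WT replicate 2 lay closest to the limit of 50000 while both of the KO libraries lay well beyond it. In the second set the median rank was 33704 in KO replicate 2, 37528 in KO replicate 1 and 42138 in WT replicate 2. The remaining medians were 59780 in KO replicate 3, 63098 in WT replicate 3 and 72214.5 in WT replicate 1. Here WT replicate 1 was the farthest. In both sets the holding library whose genotype was in the minority, KO replicate 3 or WT replicate 2, had the weakest median of the 3.

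**Figure D1:**
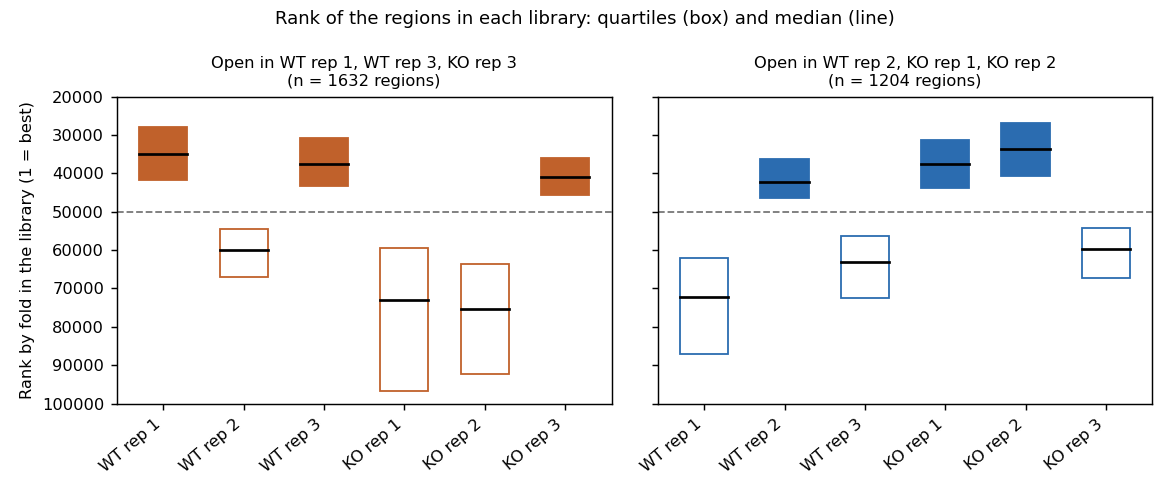
Rank by fold in each library for the first set (left, 1632 regions) and the second set (right, 1204 regions), with rank 1 at the top of the scale; boxes span the quartiles, lines are medians, filled boxes are the libraries that hold the set and the dashed line is the limit of 50000. In the first set KO replicate 2 has the weakest median, 75283.5, and in the second set WT replicate 1, 72214.5.

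Most members were present, at lower rank, in the libraries that did not hold them. In the first set 1375 of 1632 regions (84.3%) had an interval in all 3 of the other whole lists, and in the second set 1181 of 1204 (98.1%) had one. No region of either set lacked an interval in all 3 of the other whole lists. Absence from a whole list was concentrated in the KO libraries of the first set, with 215 regions (13.2%) in KO replicate 1 and 158 (9.68%) in KO replicate 2 against 0 in WT replicate 2. In the second set WT replicate 1 lacked 22 regions (1.83%), WT replicate 3 lacked 2 and KO replicate 3 lacked 1. The whole lists were not alike. That of KO replicate 1 started at a −log10 p of 3.00, against 2.00 in WT replicate 2. That of KO replicate 2 held 149153 intervals, against 174275 in WT replicate 2. The part of these limits in the absences was not tested. In bulk libraries, fewer cells with a site open and less opening per cell cannot be told apart.

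Values near the limit show how thin the boundary was. In the first set 737 regions had their weakest holding library at ranks 45001 to 50000, 630 had their best other library at ranks 50001 to 55000, and 251 had both. For the second set these counts were 617, 552 and 253. A rank in the best other library at least 2 times that in the weakest holding library was found for 100 regions (6.13%) of the first set and 23 (1.91%) of the second. A gap of at least 4 times was found for 5 and 0 regions. Members with a mean rank of 25000 or better over their holding libraries numbered 98 and 42.

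The best-ranked members show the pattern at single sites, and most lay away from gene ends. An X-linked region of 690 bp near Cldn34d, of the claudin family of tight junction proteins (chrX:76598498-76599187, inside a gene), ranked 275 in WT replicate 1, 1345 in WT replicate 3 and 1903 in KO replicate 3. It ranked 60005 in WT replicate 2 and 71293 in KO replicate 1, and KO replicate 2 had no interval. An intergenic region 35650 bp from Chd6, a chromatin remodeller (chr2:161144736-161145162), ranked 3502, 5137 and 12069 in WT replicates 1 and 3 and KO replicate 3. Its ranks in WT replicate 2, KO replicate 1 and KO replicate 2 were 56869, 180522 and 131711. Both regions were well inside the limit in 3 libraries, and in WT replicate 2 they lay closer to it than in KO replicates 1 and 2. A region inside a gene, 24626 bp from the nearest end of Itgav, the integrin subunit alpha V (chr2:83781897-83782291), followed the same order, with 4791, 9579 and 13054 against 54816 in WT replicate 2, 107623 in KO replicate 1 and 111425 in KO replicate 2. Regions near Triml2, Snap25, a SNARE protein of synaptic vesicle release, and Slc7a6, an amino acid transporter, and regions on chromosomes 2 and 3 with no protein-coding gene end within 50 kb completed the 8 best. None of these 8 lay at a gene end.

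In the second set the best member lay inside a gene, 12947 bp from the nearest end of Epha10, an ephrin receptor (chr4:124894477-124895146). It ranked 5157 in KO replicate 2, 16013 in WT replicate 2 and 16034 in KO replicate 1, and 50353 in WT replicate 3, 52243 in KO replicate 3 and 98111 in WT replicate 1. The region over the Hfm1 promoter printed above (chr5:106925606-106926135) ranked 3533, 17134 and 23804 in KO replicates 2 and 1 and WT replicate 2, and 50666, 58985 and 71473 in KO replicate 3, WT replicate 3 and WT replicate 1. KO replicate 2 was the strongest library at both, and WT replicate 1 the weakest. The Ryr2 promoter region (chr13:12105846-12107257, 1412 bp) ranked 11399 in KO replicate 2, 15714 in KO replicate 1 and 23830 in WT replicate 2. It ranked 63347 in KO replicate 3 and 75848 in WT replicate 3, and WT replicate 1 had no interval. Its interval spanned 1412, 1179 and 1035 bp in KO replicate 1, KO replicate 2 and WT replicate 2 but 247 bp in both WT replicate 3 and KO replicate 3, so that the libraries differed in width as well as in rank. Tmem14a, Fbxw4 (an F-box protein), Gm28710 and regions on chromosomes 3 and 10 without a protein-coding gene end within 50 kb were the other 5.

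**Figure D2:**
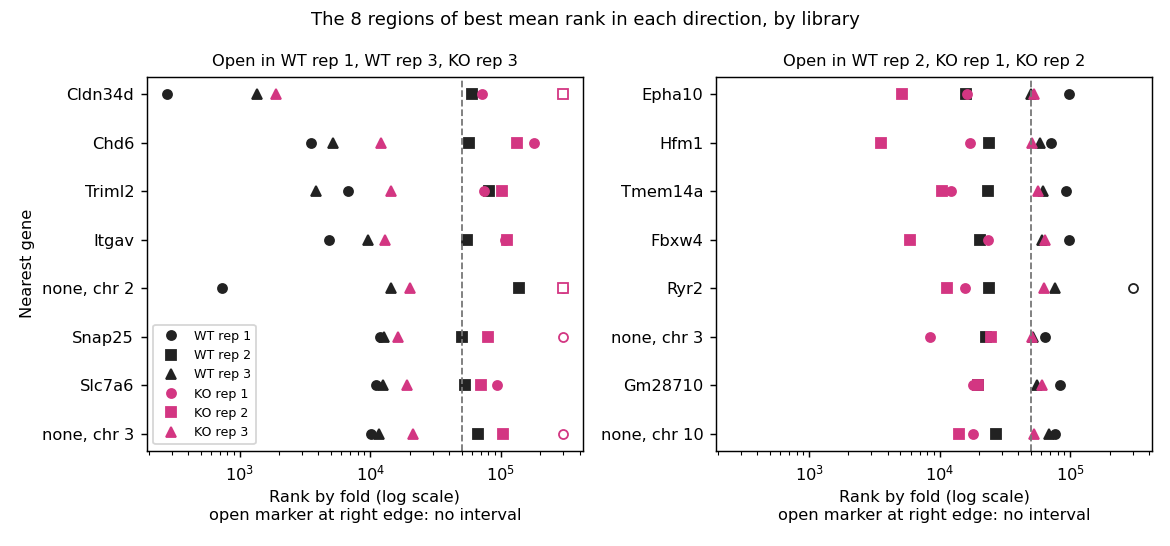
Rank by fold (log scale) of the 8 members with the best mean rank in each set, labelled with the closest protein-coding gene (50 kb at most), with 1 marker per library; the dashed line is the limit of 50000 and open markers are libraries without an interval. The holding libraries lie left of the line, and the region near Cldn34d ranks between 275 and 1903 in them.

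Where the members lay relative to genes differed between the sets. Within 500 bp of either end of a protein-coding gene lay 96 regions of the first set, 5.88% (95% exact binomial interval 4.79 to 7.14), and 170 of the second, 14.1% (12.2 to 16.2). The share was 16.7% over all regions, 24.7% over the 32403 regions kept in all 6 libraries and 9.92% over the 3539 other regions kept in exactly 3. The first set was thus below, and the second above, the other regions that were kept in 3 libraries, while neither reached the share of all regions. Counting annotated start sites alone gave 68 regions (4.17%) and 145 regions (12.0%) against 14.0% of all regions. These intervals cover counting error only, and regions of 1 library are not replicates, so the sets were not tested against each other. The 2 sets with a pure genotype pattern differed in the same measure by more, at 2.47% for WT only and 17.6% for KO only.

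The gene-end difference kept its direction in each alternative run, though not its size. Ranking by the deposited p-value in place of fold gave 3.36% and 23.3%. Leaving out KO replicate 1 gave 8.88% in the first set, and the number of regions was 4188 and 3429 without WT replicate 2, 2892 and 2318 without KO replicate 3, and 1884 in the second set without KO replicate 1, since fewer libraries then define the pattern. Among all intervals ranked 25001 to 50000, where most members lay, the gene-end share was 13.7% in WT replicate 1, 14.8% in WT replicate 3 and 14.5% in KO replicate 3. The libraries of the second set stood at 16.8% for WT replicate 2, 14.3% for KO replicate 1 and 17.8% for KO replicate 2. The ranges overlap through KO replicate 1, and the part of this background in the difference between the sets was not tested.

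**Figure D3:**
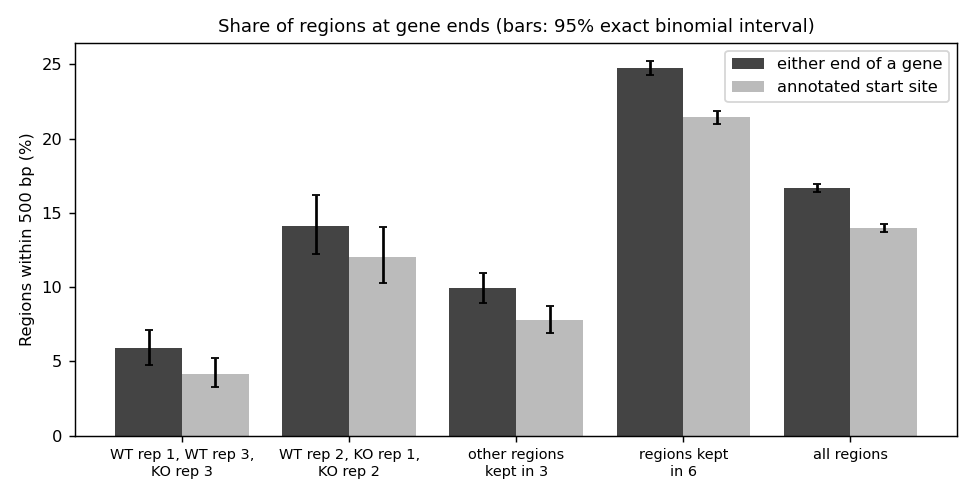
Percent of regions within 500 bp of either end of a protein-coding gene (dark) or of an annotated start site (light), with 95% exact binomial intervals that cover counting error only. The first set stands at 5.88% and the second at 14.1%, against 16.7% of all regions.

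The remaining regions were spread over genes and the DNA between them. Inside genes lay 855 regions (52.4%) of the first set and 611 (50.7%) of the second, against 45.3% of all regions, and between genes lay 681 (41.7%) and 423 (35.1%), against 38%. More than 50 kb from any gene end lay 394 (24.1%) and 286 (23.8%), against 23.2% of all regions. The median distance to a gene end was 15482 bp and 15453.5 bp. The first set lay closer to open regions common to all libraries: 852 of its regions (52.2%) were within 10 kb of a region kept in all 6 and 175 (10.7%) within 1 kb. Of the second set, 385 (32.0%) and 25 (2.08%) were that close, and of the other regions kept in 3 libraries 37.7% and 4.46%. Members of the first set also lay nearer to one another, with 244 (15.0%) within 50 kb of another member of their own set against 116 (9.63%) in the second, which has fewer members.

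At the gene ends themselves, 6 regions of best mean rank were taken from each set. In the first set these were Klhl1, Cul3, H3c7, Klra2, Fzd8 and Dusp13. The Klhl1 region (chr14:96519115-96519635) ranked 8072 in WT replicate 1, 5013 in WT replicate 3 and 46050 in KO replicate 3, against 51741, 56370 and 79192 in WT replicate 2 and KO replicates 1 and 2. This region was strong in the holding WT libraries but hardly inside the limit in KO replicate 3. The Cul3 region (chr1:80339272-80340744), which covers the gene's start, ranked 19332, 19177 and 27719 in the holding libraries and 58621, 57287 and 66330 in WT replicate 2, KO replicate 1 and KO replicate 2. H3c7, a replication-dependent histone H3 gene, and Klra2 ranked 16796 and 21935 in WT replicate 1 and stood at 34087 and 23748 in KO replicate 3. Fzd8, a Wnt receptor, and Dusp13, a dual-specificity phosphatase, lay near the limit elsewhere, with their best other ranks at 51832 and 50300. Ranked by p, Fzd8 (4257 to 19729), Dusp13 (8859 to 39535) and Cul3 (11473 to 41565) were inside the limit in all 6 libraries. Klhl1 and H3c7 were not members by p either, and Klra2 was.

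In the second set the gene-end members of best rank were Tmem14a, Ryr2, Cped1, Elovl2, Cldn34c1 and Greb1l. The Cped1 start region (chr6:21985428-21986155) ranked 8391 in KO replicate 2, 9479 in KO replicate 1 and 41510 in WT replicate 2. Its other ranks were 59719 in KO replicate 3, 64029 in WT replicate 1 and 72428 in WT replicate 3. The Elovl2 region (chr13:41219881-41220846) ranked 11838, 23722 and 28899 in KO replicate 2, KO replicate 1 and WT replicate 2. It ranked 58009, 64524 and 67884 in KO replicate 3, WT replicate 1 and WT replicate 3. As at Ryr2, the Elovl2 interval was broad where held, 832, 966 and 684 bp in the order of the ranks, and 228, 236 and 225 bp in the libraries that did not hold it. Cped1 went the other way, with 348 and 326 bp in KO replicates 2 and 1 and 728 bp in WT replicate 2 against 432, 807 and 688 bp in KO replicate 3, WT replicate 1 and WT replicate 3. Cldn34c1 on chromosome X, another claudin-family gene, ranked 12869, 15357 and 36574 where held and 50038 in KO replicate 3, next to the limit. H3c7, Klra2, Cldn34c1 and Cldn34d belong to families of similar genes, and how reads that match several copies were placed is not stated in the labels, so their values are uncertain.

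The position of the summit relative to the start site differed between the sets. Of the 68 first-set regions within 500 bp of a start, 49 had their summit upstream, 18 downstream and 1 at the start, with a median of -74.5 bp (quartiles -425 to 13.75). Of the 145 second-set regions, 47 were upstream and 98 downstream, with a median of 54 bp (quartiles -26 to 217). The summit lay within 150 bp of the start in 29 (42.6%) and 86 (59.3%) regions. Summits of other regions were not measured, so which set departs from the usual position is not known. The difference was not tested.

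With the sets ranked by fold, promoters inside the second set were richer in CG than those inside the first. This was not rerun under the alternatives. At least 150 bp of 50 RefSeq promoters of 42 genes lay in first-set regions and of 140 promoters of 125 genes in second-set regions. Their median GC content was 53.3% and 65.7%, against 61.3% for the 8151 promoters in regions kept in all 6 libraries and 56.3% for all 21263 promoters. The ratio of observed to expected CG dinucleotides had medians of 0.55 and 0.75, against 0.80 and 0.57. A ratio of at least 0.6 was found in 24 of 50 (48.0%) and 100 of 140 (71.4%) promoters, against 79.5% in regions kept in all 6 and 47.7% of all promoters. The 260 promoters in the other regions kept in 3 libraries had a median GC content of 65.7%, a median ratio of 0.78 and 71.9% at 0.6 or above. Second-set promoters were thus close to those of other regions kept in 3 libraries, and first-set promoters stood near the average promoter. Among the printed sequences the ratio was 0.17 at Klra2 and 0.30 at Klhl1 in the first set, and 1.03 at Hfm1 and 1.04 at Elovl2 in the second. Cul3, at 0.92 and with 104 bp in its first-set region too short an overlap to be among the 50, went the other way, and so did Ryr2 at 0.57 and Cped1 at 0.58 in the second set. Promoters of neighbouring starts overlap and share sequence, so they are not independent.

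**Figure D4:**
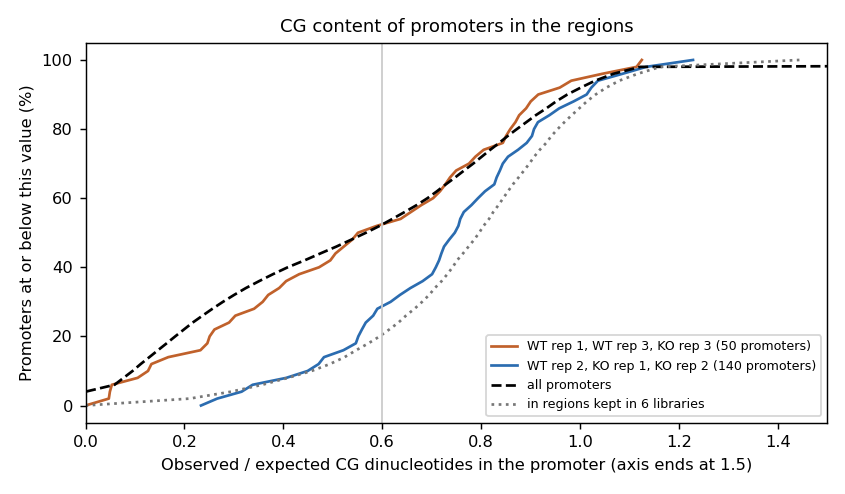
Cumulative percent of promoters by their ratio of observed to expected CG dinucleotides, for promoters in the first set (50), in the second set (140), in regions kept in all 6 libraries and for all promoters; the grey line is at 0.6. The first-set curve runs near that of all promoters (medians 0.55 and 0.57), and the second-set curve near that of regions kept in all 6 libraries (0.75 and 0.80).

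Short motifs were counted in the same promoters on both strands. The AP-1 motif, TGANTCA, bound by Fos and Jun proteins, was in 8 of 50 first-set promoters (16.0%), among them Klra2, in 5 of 140 second-set promoters (3.57%) and in 6.99% of all promoters. The GC box GGGCGG, bound by Sp1, was in 22 (44.0%), 116 (82.9%) and 46.2%. The CCAAT box bound by NF-Y was in 21 (42.0%), 35 (25%) and 38.2%. In the other regions kept in 3 libraries the GC box was in 73.1%, the CCAAT box in 26.2% and the AP-1 motif in 8.46%. The GC box and CCAAT shares of the second set were thus on the same side of all promoters as those of the other regions kept in 3 libraries, and these shares were not tested. The E2F string GGCGGGA, which can overlap the GC box, was in 18%, 22.9% and 14.9%, and the cell cycle element CHR, TTTGAA, in 14.0%, 12.9% and 16.0%. The GATA string AGATAA was in 12.0%, 4.29% and 9.65%, the TEAD string GGAATG in 16.0%, 7.14% and 13.6%, and the ETS string CCGGAA in 16.0%, 18.6% and 18.7%. The E-box CACGTG was in 2.00%, 6.43% and 7.84%, and the RUNX string TGTGGTT in 2.00%, 3.57% and 4.71%. A match describes the letters of these windows only, and its frequency moves with GC content.

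Widths overlapped and differed in shape more than in their middle. The median merged region was 445 bp wide in the first set and 406.5 bp in the second, against 509 bp over all regions, 623 bp in regions kept in all 6 libraries and 441 bp in the other regions kept in 3. From the 10th to the 90th percentile, widths ran from 307 to 741 bp in the first set and from 274 to 903 bp in the second. Regions under 300 bp made 132 (8.09%) of the first set and 256 (21.3%) of the second, against 10.3% of all regions. Regions of at least 1000 bp made 45 (2.76%) and 74 (6.15%), against 10.2%. The second set therefore held more narrow and more broad regions.

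Most broad regions of the second set lay at gene ends. Its 170 gene-end regions had a median width of 829.5 bp, and 50 of the 74 broad regions were among them, whereas its regions inside and between genes had medians of 376 and 377 bp. In the first set the medians were 572.5 bp at gene ends and 440 and 439 bp inside and between genes, and 14 of the 45 broad regions were at gene ends. In the other regions kept in 3 libraries the medians were 864, 425 and 424 bp. Which set had the wider median depended on the ranking, since ranking by p gave 436 and 453 bp and leaving out WT replicate 1 gave 405 and 434.5 bp. The kept intervals of whole libraries had median widths of 504, 481 and 441 bp in WT replicates 1 and 3 and KO replicate 3, and of 454, 421 and 444 bp in WT replicate 2 and KO replicates 1 and 2. Their part in the width of the members was not tested.

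**Figure D5:**
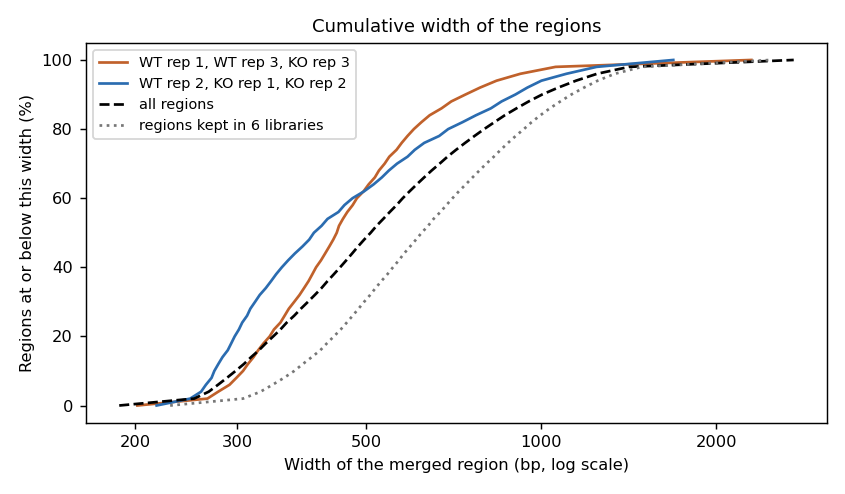
Cumulative percent of regions by width in bp (log scale) for the first set, the second set, all regions and regions kept in all 6 libraries. The second-set curve lies above the others at 300 bp, where it includes 21.3% of its regions against 8.09% of the first set, and the curves of the 2 sets cross near 500 bp.

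Genes of the urothelial lineage were near few members. With each region assigned to the closest end of a protein-coding gene, at most 50 kb away, 28 regions (1.72%) of the first set and 12 (0.997%) of the second fell to a gene of any of 12 lists, against 1.25% of all regions. Luminal urothelial genes took 8 regions of the first set (0.490%) and 1 of the second (0.0831%), against 0.206% of all regions. Basal urothelial genes took 4 (0.245%) and 1 (0.0831%), against 0.182%. In the other regions kept in 3 libraries the shares were 1.30% for any list, 0.283% for luminal and 0.113% for basal genes. Counts this small are given as a description only.

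Among the luminal members of the first set were a region at an end of Upk1b, a uroplakin of the superficial plaque, and a region at an end of Ehf, an epithelial ETS factor. A kept interval lay at an end of Upk1b in all 6 libraries, so a different region at the gene was kept in the libraries that did not hold the member. The Upk1b region (chr16:38772985-38773555) ranked 32972, 38356 and 47862 in WT replicates 1 and 3 and KO replicate 3 and 66662, 75696 and 64290 in WT replicate 2 and KO replicates 1 and 2. The Ehf region (chr2:103303102-103304119) ranked 36477, 34908 and 32523 where held and 54430, 64407 and 72363 in the same other libraries. Both were moderate in every library, and the holding and other libraries did not overlap, as the rule requires. Krt7, a simple keratin of urothelium, had 2 members, 9125 bp and 16117 bp away. The nearer ranked 25677, 33864 and 24088 where held and 54560, 75927 and 70391 elsewhere. The other luminal members lay near Rxra, a retinoid receptor, Tbx3, a transcription factor, and the tight junction claudins Cldn3 and Cldn4. In the second set the single luminal member lay 7090 bp from the nearest end of Pparg, a nuclear receptor of urothelial differentiation, and ranked 28373, 26774 and 48372 in KO replicates 2 and 1 and WT replicate 2 and 50573 in KO replicate 3, next to the limit.

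Basal genes had members of both sets. First-set members lay near Krt5, the basal keratin, Cdh3, the P-cadherin gene, Perp, a desmosomal protein, and Col17a1, a hemidesmosome collagen. The Col17a1 region of the first set, 1875 bp from the gene (chr19:47693917-47694336), ranked 24217, 24560 and 46217 where held and 63272 in WT replicate 2, and neither KO replicate 1 nor KO replicate 2 had an interval. A second-set region inside a gene and 8484 bp from a Col17a1 end (chr19:47654825-47655427) ranked 34751, 37424 and 41553 in KO replicates 2 and 1 and WT replicate 2 and 56180, 60288 and 77149 elsewhere. The neighbourhood of 1 gene thus held both patterns by fold, while by p only the first-set region was a member. In all, 90 genes were nearest to members of both sets, 7.78% of the 1157 genes of the first set and 10.3% of the 878 of the second. Such sharing was not counted for other regions, and genes with many regions can share by number alone, so nothing is read from this count.

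Genes of stroma, vessels and leukocytes were also near few members of either set. Fibroblast genes took 0 regions of the first set and 3 (0.249%) of the second, against 0.105% of all regions, and smooth muscle genes took 0 and 1 (0.0831%), against 0.0823%. In the other regions kept in 3 libraries the shares were 0.198% for fibroblast, 0.0848% for smooth muscle, 0.0848% for endothelial and 0.0283% for leukocyte genes. The fibroblast members lay near Prrx1, a mesenchymal homeobox gene, and the collagen genes Col1a1 and Col6a3, and the smooth muscle member at the end of Des, which encodes the intermediate filament of muscle. The Des region (chr1:75360243-75360998) ranked 31015, 44072 and 44273 in KO replicate 2, WT replicate 2 and KO replicate 1 and 71441, 97765 and 105212 in KO replicate 3, WT replicate 1 and WT replicate 3. Endothelial genes took 2 regions of the first set (0.123%), near Vwf and Sox17, and 1 of the second (0.0831%), near Pecam1, against 0.0865% of all regions. Leukocyte genes took 1 region of the first set (0.0613%), near Ptprc, the pan-leukocyte gene CD45, and 0 of the second, against 0.0468%, and nerve and glia genes were near none of either set.

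Markers at gene ends bear on which cells the libraries held. A kept interval lay at an end of 15 to 19 of 30 luminal genes in the libraries of the first set and of 10 to 19 in those of the second, and of 8 to 11 and 10 to 14 of 26 basal genes. For fibroblast genes the ranges were 3 to 7 and 3 to 6 of 24, for smooth muscle 5 to 8 and 5 to 7 of 15, for endothelium 2 to 3 and 2 to 4 of 18, and for leukocytes 2 to 3 and 2 to 4 of 20. The ranges overlapped for each of these lists. Upk1b, Upk2, Upk3a, Upk3b and Krt20 had one in all 6 libraries, while Krt5, Krt14 and Trp63 of the basal list, Cdh5 and Pecam1 of endothelium, Ptprc of leukocytes, and Col1a1 and Pdgfra of fibroblasts had one in no library. Other cell types were not tested as a source of the sets.

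Stress, inflammation and cell cycle genes were counted the same way. AP-1 and immediate early genes took 5 regions (0.306%) of the first set and 2 (0.166%) of the second, against 0.150% of all regions. Ranked by fold, the stretch beside Myc, which encodes a growth-promoting transcription factor, held regions of both sets in succession. At 27739 bp and 37998 bp from Myc lay first-set regions and at 47295 bp a second-set region (chr15:62037656-62038358). The last ranked 17377, 21755 and 44534 in KO replicates 2 and 1 and WT replicate 2 and 51410, 53308 and 57803 in KO replicate 3 and WT replicates 1 and 3. The nearest first-set region (chr15:62018100-62018403) ranked 33327, 45554 and 38984 in WT replicates 1 and 3 and KO replicate 3 and 51491, 71196 and 79871 elsewhere. Dusp1, a phosphatase that limits MAP kinases, also had a member of each set. Interferon and inflammation genes took 4 regions of the first set (0.245%), near Irf1, Nfkbia, Tnfaip3 and Il6, and 0 of the second, against 0.101% of all regions. The other regions kept in 3 libraries had 0.170% near AP-1 and immediate early genes and 0.141% near interferon and inflammation genes.

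Targets of DREAM, the repressor complex of cell cycle genes in resting cells, took 2 regions of the first set (0.123%) and 1 of the second (0.0831%), against 0.133% of all regions. They lay 2386 bp from an end of Bub1b, a spindle checkpoint kinase, and 18515 bp from Mki67, the proliferation marker, in the first set. The second-set region (chr2:154558365-154559136) lay 264 bp from an end of E2f1, the activator of S phase genes. The annotated start nearest to it, within 500 bp, was that of Necab3 and not of E2f1. A kept interval lay at an end of E2f1 in all 6 libraries. The second-set region ranked 13951, 25616 and 31431 in KO replicate 2, WT replicate 2 and KO replicate 1. It ranked 53871, 62924 and 72631 in KO replicate 3, WT replicate 1 and WT replicate 3. Cohesin genes took 2 regions of the first set (0.123%), near Pds5a and Smc3, and 1 of the second (0.0831%), near Wapl, the cohesin releasing factor, against 0.0624% of all regions. Ribosomal protein genes took 0 and 1 (0.0831%), the latter near Rpl32, against 0.0752%. The other regions kept in 3 libraries had 0.113% near DREAM targets, 0.0565% near cohesin genes and 0.0283% near ribosomal protein genes.

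Few genes drew several members. Rbpms, an RNA-binding protein gene, was nearest to 4 regions of the first set among its 12 regions on chromosome 8, and also to 1 of the second. Ano6, a calcium-activated scramblase, and Atxn7, a subunit of a histone acetyltransferase complex, were nearest to 3 first-set regions each, of 19 and 9 in all. No gene was nearest to more than 2 members of the second set, and 40 genes were nearest to 2, with Adgrg3, Agbl4 and Atxn1 the first by alphabet.

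The study's own comparison, KO against WT, was fitted over all regions to give a background. With limma on -log2 rank over the 51833 regions kept in at least 3 libraries, 17 regions (0.0328%) were higher in KO and 18 (0.0347%) lower at an adjusted p of 0.05, beside 3333 higher and 4368 lower at an unadjusted p below 0.05. No member was among the regions called at the adjusted p. At the unadjusted p, 222 first-set regions were lower and 74 second-set regions higher. Nothing is read from these counts, because the rule drew the members from the same ranks and put both genotypes on each side, which largely fixes the sign and the spread of each. As a description, the median difference KO minus WT in -log2 rank was -0.55 in the first set, 0.45 in the second and 0.03 over all regions, where a positive value is a better rank in KO. With the replicate number as a block, limma called 7 regions higher and 3 lower over all regions. Leaving out KO replicate 3, the KO library that holds the first set, gave 836 higher and 2781 lower. Leaving out WT replicate 2, the WT library that holds the second set, gave 11 higher and 9 lower. With the sets redefined on the remaining libraries, 288 of 2318 second-set regions were called without KO replicate 3, among 48385 tested. Without WT replicate 2 it was 5 of 4188 first-set regions, among 48608 tested. Nothing is read from these counts either, for the same reason.

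As whole libraries with 50000 intervals ranked by fold, WT and KO did not overlap in gene-end share or in median width. Kept intervals at gene ends made 18.5% ± 0.426 (SD, n = 3) in WT and 20.4% ± 1.14 (n = 3) in KO (two-sided exact permutation test, p = 0.1, the smallest 3 against 3 libraries allow), and the median width was 480 ± 25 and 435 ± 12.5 bp (exact p = 0.1). The KO minus WT difference in gene-end share was 1.91 percentage points, and it was 0.602 with 100000 intervals (exact p = 0.1) and 1.69 with ranking by p (exact p = 0.2), where the groups were no longer fully apart. Grouped by the set they hold instead, the libraries overlapped in both values.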

How the data were processed

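ATAC-seq peak lists of 3 Stag2-WT and 3 Stag2-KO libraries were used, grouped by the labels' titles, with peaks called per library and not on pooled libraries. The genome build mm10 and the tool DiffBind are named in the submitters' processing notes, and which aligner and peak caller made the lists is not given in the sources used here. For each peak the authors deposited a −log10 p, a −log10 q, a fold (ratio) of coverage over background, a display score that was not used, and a summit position. These values move with depth, so they served only to rank or filter peaks within a list, and no read counts were used. Whole coverages fitted the fold and p of 100% of 4000 peaks read per library within 0.01 in −log10 p, for peaks below 250, which gave the background coverage. The depth limits which weak peaks were listed, and the list of KO replicate 1 started at a −log10 p of 3.00 and the others at 2.00.

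Rows with equal coordinates were collapsed to the highest fold, the 50000 highest per library were kept and merged at 1 bp. Gene ends are those of protein-coding genes of a RefSeq table of GRCm38.p6, without exons or UTRs, and start sites and promoters those of RefSeq on the same build. The sets, gene lists and alternatives were chosen with earlier results of these data known. Regions named are, per set, the 8 of smallest mean rank over the holding libraries, the 6 of smallest mean rank at a gene end, up to 3 per gene list, up to 4 without an interval in the other whole lists (there were none) and the 3 genes nearest to most members, ties in alphabetical order. The remaining members near list genes that the text names were added after their values were seen. The KO and WT ranks were tested by limma 3.58.1 under R 4.3.3 (trend, Benjamini-Hochberg) on −log2 ranks among the best 100000 intervals, with rank 100001 for a region without one, and library values with exact permutation tests in SciPy 1.17.1. Deviations from the genotype means correlated at 0.122, 0.599 and 0.425 over 51833 regions between same-numbered libraries. WT replicate 1 correlated more with KO replicate 3, at 0.355. The libraries were not paired in the main limma fit or in the permutation tests. The replicate number entered limma as a block only in an alternative run. Scripts used Python 3.11.15, pandas 2.3.3, NumPy 2.4.6 and matplotlib 3.10.9. The merging and the limma step were tested on simulated data, the merging against bedtools 2.31.1. Alternatives were the number of intervals kept, ranking by p, a q minimum, absence in whole lists, windows of fixed width around summits, other distances, and leaving out each library.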

Additional observations from a re-analysis of the deposited data

How the results depend on the processing

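In the alternatives run, the second set had the higher gene-end share throughout, and a −log10 q of at least 2 changed none of the counts, shares and widths. Keeping 25000 intervals gave 1017 and 769 regions, a first-set gene-end share of 10.6% and widths of 560 and 442 bp, and keeping 100000 gave shares of 4.11% and 9.48% and widths of 332 and 315.5 bp. Ranking by p gave shares of 3.36% and 23.3% and a second-set width of 453 bp. By p the sets had 1549 and 1108 regions, of which 24.2% and 19.5% overlapped the sets by fold (23.0% and 17.9% of those). The 8 best-ranked members of each set were members by p as well, but only 1 of the 6 gene-end members of the first set and 4 of 6 of the second were. Of the regions named as up to 3 per gene list, most were not members by p. Among those lost were the regions near Krt7, Krt5 and Rxra in the first set and Wapl and Des in the second. Among those retained were the regions near Irf1, Cdh3 and Smc3 in the first set and Pparg and E2f1 in the second. Judging absence in whole lists left 0 and 0 regions, so no share or width, and windows around summits have a fixed width. Gene ends within 1000 bp gave 10.2% and 16.7% and within 50 bp 3.06% and 10.9%. List genes within 10 kb took 0.919% and 0.498% of the sets. The cause of these shifts was not tested. Promoter CG content, motifs and summit positions were measured only in the sets ranked by fold, so their dependence on the ranking is not known.

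The limma counts higher and lower in KO were 2 and 2 with a rank list of 50000, 28 and 30 over regions kept in at least 1 library, 9 lower with linear ranks and 32 higher with ranking by p. With the replicate block, which pairs the libraries by number, they were 7 and 3. The X share, KO minus WT, was -0.0803 percentage points with 100000 intervals and 0.0113 as reported.

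Leaving out each library in turn gave 1763 to 4188 and 1514 to 3429 regions, gene-end shares of 3.94% to 8.88% and 11.3% to 21.1%, and widths of 405 to 454 and 371.5 to 434.5 bp. The limma counts ran from 0 to 836 higher and from 0 to 2781 lower, against 1166 to 5499 higher and 1766 to 6697 lower at an unadjusted p below 0.05. The counts were 0 and 0 on omitting WT replicate 1 or 3 or KO replicate 1, and 0 and 3 without KO replicate 2. They were 11 and 9 without WT replicate 2, and 836 and 2781 without KO replicate 3. Depth limits which weak intervals a list holds, and many members lie close to the limit of 50000, where small shifts in rank decide membership.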

Other observations

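The X chromosome held 28 regions of the first set (1.72%) and 38 of the second (3.16%), against 1.90% of all regions, and neither set had a region on Y. Kept intervals on X made 1.84% ± 0.0780 (SD, n = 3) of WT libraries and 1.85% ± 0.0307 (n = 3) of KO libraries (two-sided exact permutation test, p = 1.0). Chromosome 12 held 75 regions (4.60%) and 72 (5.98%), against 4.09% of all regions. Chromosome 15, which carries the keratin genes Krt5 and Krt7, held 63 (3.86%) and 33 (2.74%), against 4.18%.

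MicroRNA hairpins lay within 500 bp of 2 regions of each set. These were Gm51281 and Mir686 in the first set, in regions nearest to Nt5e and Psmb5. In the second set they were Mir1936 and Mir8090, in regions nearest to Itpk1 and Cfap43. The share of all regions that lay this close to a hairpin is not given here, so nothing is read from these counts.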
